A study of Drosophila melanogaster with 27 samples.

Results

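A set of 10 integrin and basement membrane genes was followed across 9 conditions of the Drosophila eye imaginal disc: the integrin subunit genes if, mys, mew and scb, and the matrix genes Col4a1, vkg, LanA, LanB1, SPARC and Ppn. They were read from the array spots whose identifier is the CG number or symbol of one of them. This gave 13 probes of 10 genes, of 16496 probes and 11510 named genes on the array, with 3 probes for if, 2 for scb and 1 for each other gene. Each array compared a test RNA with a common reference in the dyes Cy5 and Cy3. Posterior fragments (4 arrays) were micro-dissected from w1118 discs behind the morphogenetic furrow, the front at which retinal cells begin to differentiate. All other test RNAs came from whole eye-antennal discs of mutants. Extra-R8 discs, in which more cells become R8, the founder photoreceptor of each facet, were roX63 (3 arrays) and Su(roDom)519 (3 arrays), a suppressor of roDom. The heterozygotes were roDom (2 arrays) and E(roDom)2033 (2 arrays). Stop-furrow discs, in which the furrow halts and few photoreceptors form, were homozygotes of roDom (3 arrays), E(roDom)2033 (3 arrays), ato1 (3 arrays) and hh1 (4 arrays). The labels call the E(roDom)2033 mutation uncharacterized and its arrest mild. The reference was RNA of w1118 whole eye-antennal discs, which develop normally except for pigment. All larvae were in instar 3, each test RNA came from a few discs amplified by 2 rounds of T7 transcription, and the reference had 1 round.

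Integrins are transmembrane receptors made of an α and a β chain that tie cells to the matrix beneath them. In Drosophila mys encodes the main β chain, which pairs with the α chains of mew, if or scb. The sheet they grip is the basement membrane, a network of laminin trimers and collagen IV in which SPARC and papilin are also found. In the larva much of the collagen IV is made by fat body and blood cells (hemocytes) and reaches the discs through the hemolymph.

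Between 48.6% (posterior fragments, replicate 1) and 95.4% of probes were detected per array, and the median net signal of the test channel ran from 35 to 369 intensity units. Precision is limited by how many arrays a group has. Of 10 photoreceptor and neuronal markers, 8 were higher in posterior fragments than in stop-furrow discs, and 7 were higher in extra-R8 than in stop-furrow discs. The label check on the mutated genes was mixed. RNA of hh was lower in hh1 (-1.11 ± 0.17, SE, n = 4 arrays) but also in other mutants, ato was near 0 in ato1 (-0.05 ± 0.11), and ro was higher in roDom heterozygotes (1.04 ± 0.17) but not called in roDom homozygotes (0.13 ± 0.14) or roX63 (-0.09 ± 0.14). A level here is the log2 ratio of test over reference, normalised within the array, and a fitted level or difference is given ± its standard error from a limma fit of all 27 arrays with a dye term. A probe was called when its Benjamini-Hochberg adjusted p, taken over all 16490 probes tested in a comparison, was under 0.05. No control RNA was hybridised against the reference, so a test of a level against 0 counts the reference as 1 control sample without its spread, and the level carries any effect of the extra amplification round. In differences between test groups the reference cancels. In whole tissue, fewer cells of a type and less RNA per cell cannot be told apart.

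The 10 genes, each read by its brightest probe, were low more often than high against the reference. Over the 9 conditions, 16 of 90 tests were called (17.8%), of which 14 were lower and 2 higher. Over all probes 7.52% of such tests were called, 3.96% lower and 3.57% higher. The 9 comparisons share the reference, and if and scb gave 4 lower calls each. By condition, the calls numbered 1 of 10 in posterior fragments (4.73% of all probes), 3 in roX63 (13.5%), 2 in Su(roDom)519 (4.7%), 2 in roDom heterozygotes (5.48%), 1 in E(roDom)2033 heterozygotes (5.2%), 1 in roDom homozygotes (3.71%), 3 in E(roDom)2033 homozygotes (13.7%), 2 in ato1 (10.7%) and 1 in hh1 (5.94%). Against the mean of the other 8 conditions, in which the reference cancels, 6 of 90 tests were called (6.67%, against 2.67% of all tests), with 5 higher and 1 lower (1.52% and 1.15% of all tests). Posterior fragments had 4 of the higher ones, namely if (1.78 ± 0.27), SPARC (1.34 ± 0.31), Ppn (0.88 ± 0.17) and mys (0.52 ± 0.13). The posterior comparison called 8.54% of all probes in either direction. The other 2 were of if, higher in roX63 (1.15 ± 0.30) and lower in E(roDom)2033 homozygotes (-1.40 ± 0.30). In either direction, those comparisons called 2.78% and 5.35% of all probes. The roX63 call ended without any 1 of 13 arrays (adjusted p from 0.052 to 0.27). The homozygote call ended without replicate 1 (0.14) or 3 (0.065), and with scale normalization between arrays (0.065). Replicates 2 and 3 of these homozygotes are heterozygous in another label field, and by that field the difference rested on 1 homozygote array (-1.67). The SPARC call ended without posterior replicate 1 (0.051) or 4 (0.12), and the mys call without posterior replicate 2 (0.079), 3 (0.067) or 4 (0.093). By limma, 0 of 10 were called in roDom homozygotes (0.449%), roDom heterozygotes (0.0424%), E(roDom)2033 heterozygotes (0.582%), ato1 (3.87%), hh1 (1.94%) and Su(roDom)519 (0.491%), where 5, 2, 1, 2, 0 and 2 had an unadjusted p under 0.05.

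The arrays were scanned on 9 days, which are confounded in part with the conditions. Of 31 calls of a member in the 26 comparisons, 26 remained with the day as a random block. With the day as a fixed block 1 remained, mys in posterior fragments minus stop-furrow discs. Of the 31, 16 were levels against the reference. With day as a fixed block such a level is read at the first day, which held hh1 replicate 1 alone. Its value, sign and adjusted p then depend on this baseline, and a lost call does not show a dependence on the day. Differences between test groups do not depend on the baseline. The labels also name 3 array series. For a fixed block the 5th and 6th were pooled against the 7th, and levels against the reference were read at this pool. Of their 16 calls 2 remained, and the lost ones do not show a dependence on series. Ranges of adjusted p over all alternatives, given below for levels against the reference, include both of these fits. No day held both posterior fragments and extra-R8 discs. The fitted levels of the 10 genes spread unequally over the 9 conditions, from lowest to highest. The spread was 2.82 for if, 2.19 for SPARC, 1.89 for Col4a1 and between 1.22 and 1.26 for Ppn, vkg and LanA. It was 0.88 for mys, 0.55 for scb, 0.46 for LanB1 and 0.40 for mew.

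**Figure D1:**
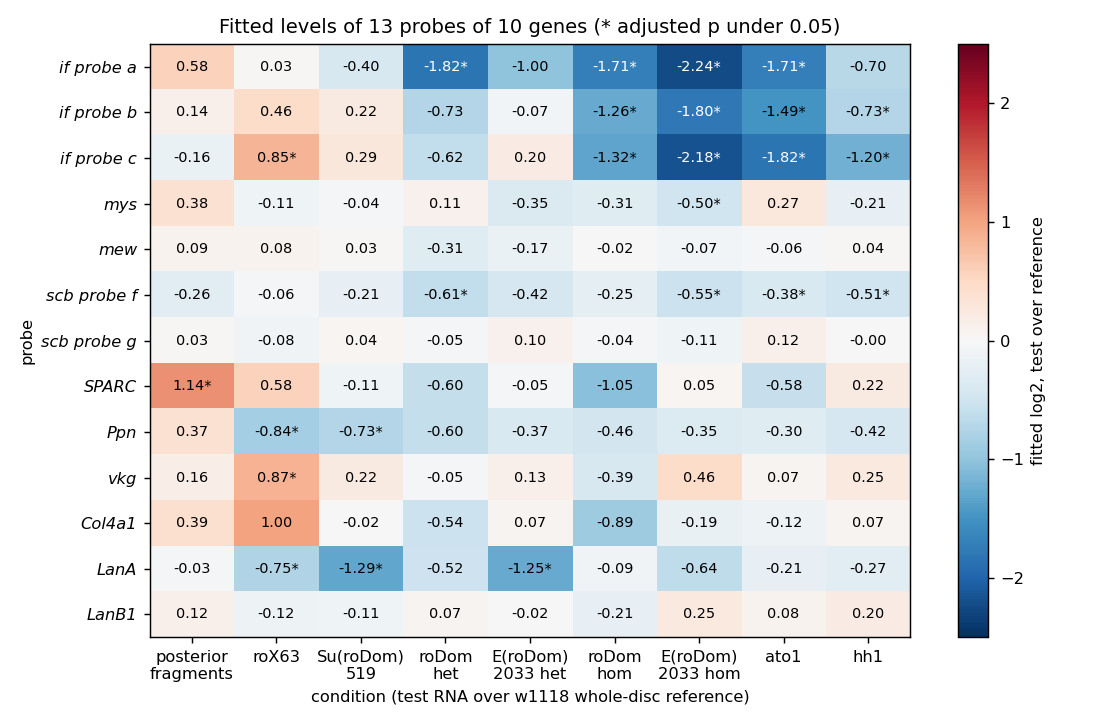
Fitted log2 level of each of the 13 member probes (rows) in the 9 conditions (columns), as test over the w1118 whole-disc reference, coloured blue for lower and red for higher; a star marks an adjusted p under 0.05. The 3 if probes are low in the 4 stop-furrow conditions on the right, from -0.70 to -2.24, while mew, scb probe g and LanB1 stay between -0.31 and 0.25 throughout.

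The gene if (inflated) encodes the αPS2 chain, best known in Drosophila for muscle attachment and for holding the wing surfaces together. Its brightest probe, a, read 0.32, 1.57, 0.75 and 0.34 in posterior fragments. In roX63 discs it read -0.24, -0.33 and 0.33, and in Su(roDom)519 discs -0.54, -0.72 and -0.26. Over the 13 stop-furrow arrays it ran from -2.61 through a median of -1.79 to -0.01. By probe a every posterior array thus lay above every stop-furrow array. The extra-R8 arrays, from -0.72 to 0.33, overlapped with the upper end of the stop-furrow range. Posterior and stop-furrow arrays overlapped by probe b (lowest posterior -0.15, highest stop-furrow -0.05) and by probe c (-0.51 and -0.43). By probe c every extra-R8 array lay above every stop-furrow array (lowest extra-R8 -0.11). The share of all probes without such overlap is not given here.

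The difference in if probe a between posterior fragments and stop-furrow discs was 2.17 ± 0.28 (adjusted p = 2.02e-05), a 4.504-fold higher level. Between extra-R8 and stop-furrow discs it was 1.41 ± 0.25 (adjusted p = 0.0014), or 2.65-fold. Posterior fragments against extra-R8 discs gave 0.76 ± 0.33 (adjusted p = 0.19), with a 95% interval from 0.08 to 1.45. The other probes kept the first of these differences, at 1.45 ± 0.22 (b) and 1.47 ± 0.26 (c). They gave larger differences for extra-R8 against stop-furrow discs, at 1.66 ± 0.19 (b) and 2.20 ± 0.23 (c). For posterior fragments against extra-R8 discs the sign depended on the probe, with -0.20 ± 0.25 (b) and -0.73 ± 0.30 (c), and none of the 3 probes was called. Once the scanning day entered as a fixed block, the differences of probe a were 2.04 (adjusted p = 0.052) for posterior fragments and 1.58 (adjusted p = 0.093) for extra-R8 discs against stop-furrow discs, the highest p over all alternatives of each. The lowest were 5.89e-07 and 2.45e-05. On the day shared by 3 posterior arrays and ato1 replicate 1, the mean of if was 0.89 in the fragments and -0.95 in ato1. On the day shared by 2 extra-R8 and 2 stop-furrow arrays it was -0.53 in extra-R8 and -1.97 in stop-furrow discs. Means within a day, here and below, carry no dye term.

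Among the stop-furrow genotypes the fitted level of if ran from -2.24 to -0.70. E(roDom)2033 homozygotes were lowest, with -2.18, -2.27 and -2.61 by probe a and a fitted level of -2.24 ± 0.29 (adjusted p = 2.33e-05). The levels were -1.71 ± 0.29 in roDom homozygotes (adjusted p = 0.0018) and -1.71 ± 0.29 in ato1 (adjusted p = 4.03e-04). In hh1 the arrays split, at -0.05, -0.36 and -0.01 with Cy3 and -1.73 on the only Cy5 array, replicate 4. The fitted -0.70 ± 0.25 was not called (adjusted p = 0.11). The part of the dye in this split was not tested. Of the hh1 arrays above -0.40, replicates 2 and 3 had the hemocyte marker Hml at 3.09 and 2.95, and replicate 1 had it at 0.06. Probes b and c were both called lower in hh1, at -0.73 ± 0.19 (adjusted p = 0.026) and -1.20 ± 0.23 (adjusted p = 0.0026). In the order of all 9 conditions by probe a, 1 gap between neighbours exceeded the larger SD of their arrays, that of 0.42 between roX63 and Su(roDom)519 (SD 0.36).

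Heterozygotes were less uniform for if. In roDom heterozygotes probe a read -0.97 on the Cy3 array and -2.68 on the Cy5 array, with a fitted -1.82 ± 0.35 (adjusted p = 0.0045), whereas probes b and c were not called (-0.73 ± 0.27 and -0.62 ± 0.32). Without replicate 2 the adjusted p of probe a was 0.40, within a range over all alternatives from 0.0022 to 0.51. E(roDom)2033 heterozygotes read -0.16 on the Cy3 array and -1.85 on the Cy5 array, and the fitted level was not called (-1.005 ± 0.35, adjusted p = 0.10). Homozygotes minus heterozygotes of E(roDom)2033 differed by -1.24 ± 0.45 in probe a (adjusted p = 0.20), and by -1.72 ± 0.34 (b, adjusted p = 0.016) and -2.39 ± 0.41 (c, adjusted p = 0.0052), so the call rests on the probe. Replicates 2 and 3 of these homozygotes are heterozygous in another label field. The 3 probes have unequal dye effects of -0.66 (a), -0.26 (b) and -0.52 (c), Cy5 minus Cy3, which the dye term takes out on average. Over the 27 arrays the probes correlated at r = 0.84 (a with b), 0.75 (a with c) and 0.96 (b with c).

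The 3 other integrin genes moved far less. mys encodes the βPS chain shared by the αPS integrins. It read 0.14, 0.60, 0.54 and 0.36 in posterior fragments, all above 0. It ran from -0.29 through -0.06 to 0.03 in extra-R8 discs, with no overlap with the posterior arrays, and from -0.73 through -0.16 to 0.72 in stop-furrow discs. The posterior level exceeded the stop-furrow level by 0.57 ± 0.14 (adjusted p = 0.012) and the mean of the other 8 conditions by 0.52 ± 0.13 (adjusted p = 0.016). The stop-furrow difference lost its call without posterior replicate 2 (0.51, adjusted p = 0.061), 3 (0.53, 0.052) or 4 (0.55, 0.062), and ranged from 0.0031 to 0.13 in adjusted p over all alternatives. A fit with day as a fixed block gave 1.15 (adjusted p = 0.022), and on the day shared with ato1 the fragments averaged 0.50 and ato1 0.01. Posterior fragments minus extra-R8 discs gave 0.45 ± 0.16 (adjusted p = 0.099). The lowest level of mys was in E(roDom)2033 homozygotes (-0.50 ± 0.14, adjusted p = 0.023), with arrays at -0.60, -0.32 and -0.62. That call ended without replicate 1 (-0.40, adjusted p = 0.26) or 3 (-0.46, adjusted p = 0.15). Its adjusted p ranged from 0.0085 to 0.96, the highest with day as a fixed block. Replicates 2 and 3 are heterozygous in another label field, and by that field the level rested on 1 array (-0.67).

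scb encodes the αPS3 chain, known in Drosophila from tubular organs and synapses. Its brighter probe, f, was below 0 on all but 2 of the 27 arrays and was called lower in 4 conditions. Those 2 arrays, posterior replicate 1 and roX63 replicate 3, were the ones on which probe f was not detected. It read -0.42 and -0.80 in roDom heterozygotes (-0.61 ± 0.13, adjusted p = 0.011) and -0.59, -0.83 and -0.26 in E(roDom)2033 homozygotes (-0.55 ± 0.11, adjusted p = 0.0022). The hh1 arrays were close together at -0.50, -0.54, -0.46 and -0.41 (-0.51 ± 0.10, adjusted p = 0.0025). In ato1 the arrays read -0.40, -0.20 and -0.50 (-0.38 ± 0.11, adjusted p = 0.027). The dimmer probe g gave fitted levels from -0.11 to 0.12 and no call against the reference, but was detected on 17 arrays only. The ato1 call, with adjusted p from 0.014 to 0.71 over all alternatives, ended without replicate 1 (adjusted p = 0.12) or 3 (0.21), the roDom heterozygote call without either array (0.060 and 0.48), and the E(roDom)2033 homozygote call without replicate 1 (0.059). The hh1 call ended without the arrays of Hml over 1, hh1 replicates 2 and 3 among them (-0.46, adjusted p = 0.17, in a range over all alternatives from 5.66e-04 to 0.21). All 4 calls of scb ended with array series as a fixed block (adjusted p from 0.21 to 0.71), where levels are read at the pooled 5th and 6th series. Of these 4 conditions only hh1 had an array outside the 7th series, so the lost calls do not show a dependence on series. Replicates 2 and 3 of E(roDom)2033 homozygotes are heterozygous in another label field, and by that field their level rested on 1 array (-0.66). No group difference of scb was called. Extra-R8 minus stop-furrow discs came to 0.29 ± 0.10 (adjusted p = 0.072).

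mew encodes the αPS1 chain, which in Drosophila binds laminin. It had fitted levels from -0.31 to 0.09 and no call in any of the 26 comparisons, at 19 detected arrays of 27. Its test channel was not well above background on any array of roX63 or of roDom homozygotes. Posterior fragments minus stop-furrow discs gave 0.12 with a 95% interval from -0.08 to 0.31.

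**Figure D2:**
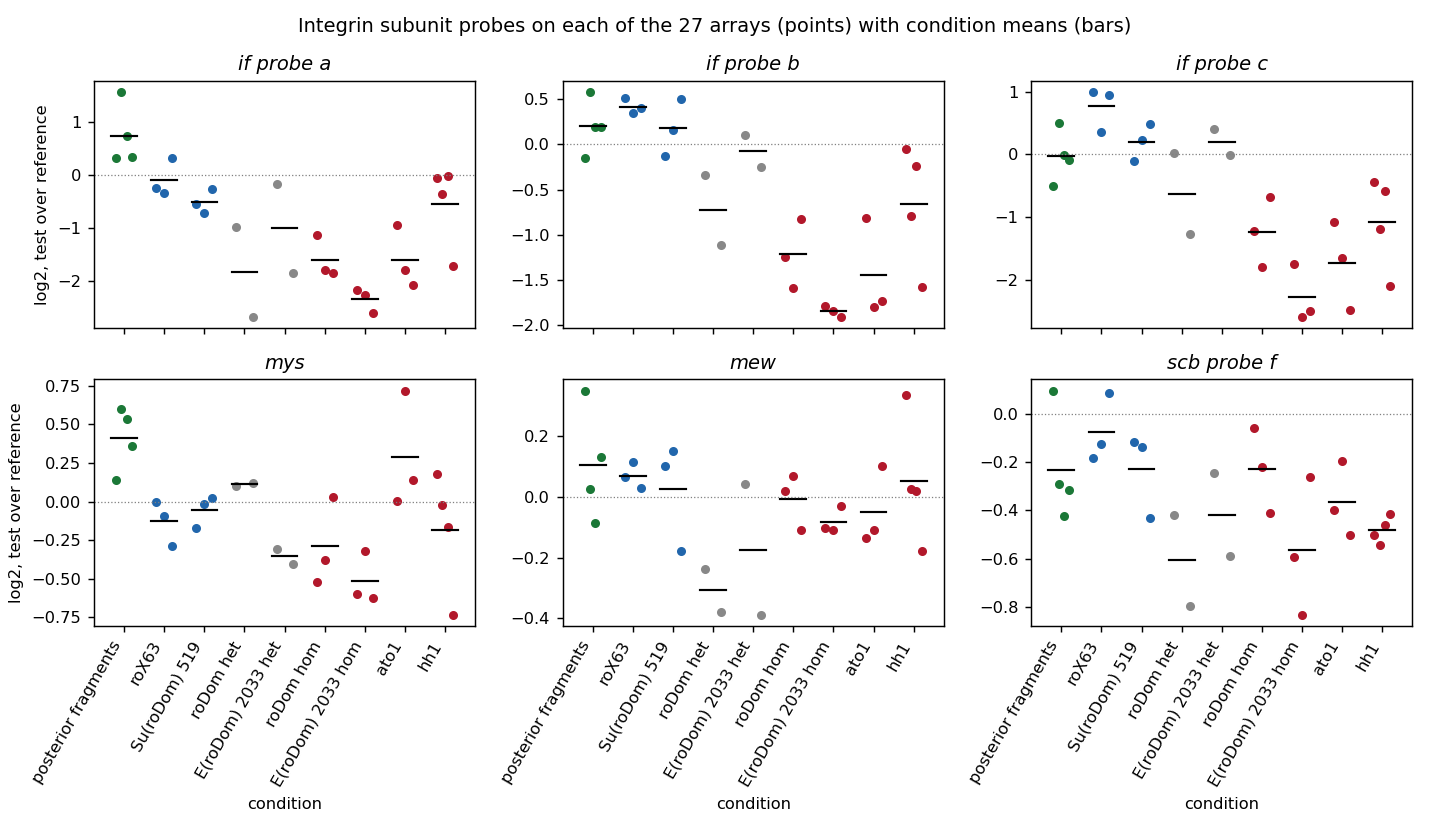
Log2 test over reference of 6 integrin probes (panels) by condition on the horizontal axis; points are the 27 arrays, bars are plain condition means without the dye term, and colours mark posterior fragments (green), extra-R8 discs (blue), heterozygotes (grey) and stop-furrow discs (red). The green and red points do not overlap in if probe a, and the blue and red points do not overlap in if probe c; the vertical scales differ, so that mys, mew and scb move over less than if.

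Col4a1 and vkg encode the α1 and α2 chains that make the fly's collagen IV, and they lie next to each other on chromosome arm 2L. Col4a1 read 0.03, 0.49, 0.71 and 1.03 in posterior fragments. It read 0.01, 0.14 and 2.53 in roX63 discs and ran from -1.36 through -0.27 to 1.46 in stop-furrow discs. No comparison of Col4a1 was called. The largest fitted levels were 1.00 ± 0.35 in roX63 (adjusted p = 0.063) and -0.89 ± 0.35 in roDom homozygotes (adjusted p = 0.16).

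vkg read 0.10, 0.09, 0.08 and 0.56 in posterior fragments, and 0.21, 0.30 and 2.01 in roX63 discs. Its level in roX63 was called higher at 0.87 ± 0.24 (adjusted p = 0.017). Replicate 3 decided this, since without it the level was 0.24 (adjusted p = 0.72). Over all alternatives the adjusted p ranged from 0.011 to 0.87, the highest with day as a fixed block. The test channel of vkg was not well above background in roDom heterozygotes.

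The 2 collagen genes went up and down together. Over the 27 arrays they correlated at r = 0.84 (Spearman 0.62), and at 0.72 without roX63 replicate 3. After each condition's mean was subtracted, r was 0.89. SPARC correlated with Col4a1 at 0.68 and with vkg at 0.65. These are descriptions over arrays that share 1 reference.

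Some hemocyte markers moved with these genes from array to array, and others did not. Of 10 listed hemocyte genes, 9 were measured (Hml, NimC1, eater, srp, Pxn, crq, lz, gcm and ush). Pxn is also among the matrix genes listed further on. The mean of these 9 on an array ran from -0.26 to 0.48 in posterior fragments, from -0.08 to 1.06 in roX63, from -0.48 to 0.23 in Su(roDom)519 and from -0.64 to 0.66 in stop-furrow discs. In posterior fragments minus stop-furrow discs 1 of the 9 was called, lz, which photoreceptor precursors also use. Among the plasmatocyte markers, Hml encodes hemolectin, and NimC1 and eater encode phagocytic receptors. On roX63 replicate 3, where Col4a1 and vkg were highest, Hml read 2.86, NimC1 2.55 and eater 4.30. On hh1 replicate 3 they read 2.95, 1.55 and 4.03, beside 1.46 for Col4a1 and 0.95 for vkg. On hh1 replicate 2 Hml was 3.09, with Col4a1 at 0.49 and vkg at 0.37. At the low end, roDom homozygote replicates 1 and 2 had Hml at -1.76 and -1.28, with Col4a1 at -1.36 and -0.86. Over the 27 arrays Hml correlated with Col4a1 at r = 0.81, with vkg at 0.74 and with SPARC at 0.56. It correlated with if at 0.46, with LanB1 at 0.33, with mys at 0.09, with LanA at 0.07 and with Ppn at -0.05. With if, lz gave 0.87, NimC1 0.47, eater 0.47, ush 0.42, Pxn 0.33, srp 0.04, crq -0.24 and gcm -0.36. With Col4a1, NimC1 gave 0.86, eater 0.76, Pxn 0.76, lz 0.40, srp 0.22, ush 0.13, gcm -0.11 and crq -0.38. For vkg and SPARC, NimC1, eater and Pxn lay between 0.47 and 0.80, lz, srp, gcm and ush between -0.13 and 0.30, and crq at -0.37 and -0.40. The scavenger receptor gene crq read -2.53 and -2.36 on hh1 replicates 2 and 3, where Hml was high. Hml was detected on 25 arrays, NimC1 on 19 and eater on 26. Among the 10 fat body genes, Lsp1beta correlated with vkg at 0.55, with Col4a1 at 0.36 and with SPARC at 0.20. Without roX63 replicate 3 the first 2 were 0.37 and 0.13. The other fat body genes lay between -0.33 and 0.27 for Col4a1 and vkg, and between -0.31 and 0.04 for SPARC. The part of hemocytes or fat body in the values of Col4a1, vkg and SPARC was not tested.

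**Figure D3:**
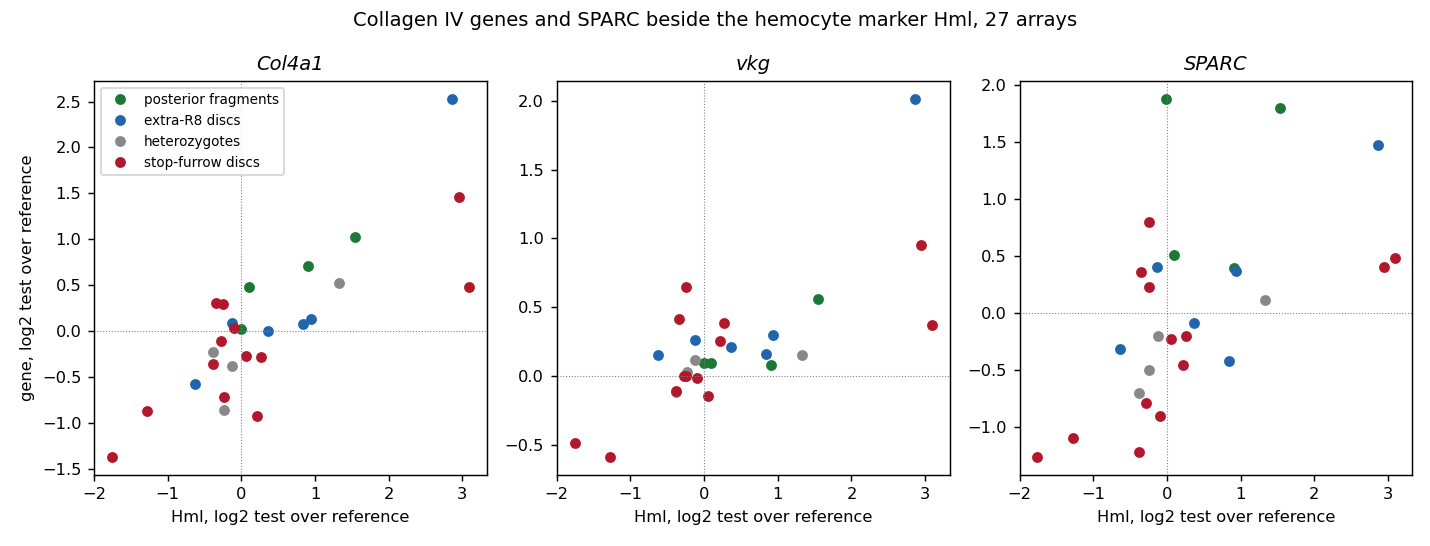
Log2 test over reference of Col4a1, vkg and SPARC (vertical axes, one panel each) against that of the hemocyte marker Hml (horizontal axis) on the 27 arrays, coloured by group. The array at the top right of the Col4a1 and vkg panels is roX63 replicate 3, and the posterior array with SPARC at 1.87 has Hml near 0.

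SPARC encodes a secreted glycoprotein that binds collagen IV, and in Drosophila it is needed for a stable basement membrane. It read 1.87, 0.51, 0.39 and 1.79 in posterior fragments, 2 arrays high and 2 moderate. It ran from -0.42 through 0.14 to 1.47 in extra-R8 discs and from -1.26 through -0.22 to 0.79 in stop-furrow discs, so the groups overlapped. Its posterior level was 1.14 ± 0.29 against the reference (adjusted p = 0.023), the only call of a member there in a comparison that called 4.73% of all probes. Against stop-furrow discs the difference was 1.48 ± 0.32 (adjusted p = 0.0049), or 2.80-fold. Without posterior replicate 4, on which Hml was 1.54, the stop-furrow difference was 1.22 (adjusted p = 0.064) and the level against the reference 0.86 (adjusted p = 0.29). Without replicate 1, the dimmest array, with Hml at -0.01, the level against the reference was 0.91 (adjusted p = 0.15). Without the 5 arrays of Hml over 1, a set chosen after seeing the data, the stop-furrow difference was 1.40 (adjusted p = 0.046), while the level against the reference (1.01, adjusted p = 0.20) and the difference to the other 8 conditions (1.33, adjusted p = 0.070) lost their calls. The adjusted p of the stop-furrow difference ranged from 7.10e-04 to 0.23 over all alternatives, with the highest under scanning day as a fixed block (1.87). On the day shared with ato1 the fragments averaged 0.90 and ato1 -1.21. SPARC was lowest in roDom homozygotes, at -1.26, -1.09 and -0.79 (-1.05 ± 0.33, adjusted p = 0.080). Posterior fragments minus extra-R8 discs gave 0.91 ± 0.38 (adjusted p = 0.17).

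Ppn encodes papilin, a large glycoprotein of basement membranes with domains like those of ADAMTS proteases. It was above 0 on all 4 posterior arrays (0.27, 0.40, 0.07 and 0.76) and below 0 on all 6 extra-R8 arrays, from -0.90 through -0.84 to -0.49. The stop-furrow arrays lay from -0.98 through -0.34 to 0.18. Posterior fragments exceeded extra-R8 discs by 1.16 ± 0.20 (adjusted p = 0.0011, 2.23-fold), with no overlap, and stop-furrow discs by 0.76 ± 0.17 (adjusted p = 0.0069). Without posterior replicate 4 the stop-furrow difference was 0.59 (adjusted p = 0.091, in a range over all alternatives from 0.0022 to 0.26). The difference to extra-R8 discs was 0.38 with day as a fixed block (adjusted p = 0.73), and 1.05 with day as a random block (adjusted p = 0.011). Without the 5 arrays of Hml over 1, the differences were 0.93 to extra-R8 discs (adjusted p = 0.056) and 0.53 to stop-furrow discs (adjusted p = 0.14). On the scanning day shared with ato1, the fragments averaged 0.41 and ato1 -0.20. Against the reference Ppn was lower in roX63 (-0.84 ± 0.17, adjusted p = 0.0029) and in Su(roDom)519 (-0.73 ± 0.17, adjusted p = 0.019). The Su(roDom)519 call ended without any 1 of its 3 arrays (adjusted p from 0.053 to 0.17) and the roX63 call without replicate 3 (-0.81, adjusted p = 0.0501).

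LanA encodes one of the α chains with which the fly builds its laminin trimers. It read -0.58, 0.20, 0.49 and 0.15 in posterior fragments. Extra-R8 discs were lower, with -0.57, -1.22 and -0.66 in roX63 and -1.07, -1.34 and -1.67 in Su(roDom)519. Stop-furrow discs ran from -1.09 through -0.01 to 0.48, and all 3 groups overlapped. The fitted level was -0.75 ± 0.22 in roX63 (adjusted p = 0.026) and -1.29 ± 0.22 in Su(roDom)519 (adjusted p = 0.0022). E(roDom)2033 heterozygotes read -0.94 and -1.57 (-1.25 ± 0.27, adjusted p = 0.011). The heterozygote call ended without either array (0.14 and 0.22), and the roX63 call without replicate 2 (0.17) or 3 (0.22). Extra-R8 minus stop-furrow discs came to -0.72 ± 0.19 (adjusted p = 0.023) and posterior fragments minus extra-R8 discs to 0.99 ± 0.25 (adjusted p = 0.018). Within the scanning day that holds 2 extra-R8 and 2 stop-furrow arrays, LanA averaged -1.28 in extra-R8 and -0.78 in stop-furrow discs. These means carry no dye term, and LanA had a dye effect of -0.40, Cy5 minus Cy3. Both extra-R8 arrays were Cy5 (-1.22 and -1.34). Of the stop-furrow arrays, ato1 replicate 3 was Cy5 (-1.09) and roDom homozygote replicate 3 was Cy3 (-0.47). The sign of the extra-R8 difference turned when the day entered as a fixed block (0.23, adjusted p = 0.79, in a range over all alternatives from 0.0030 to 0.79). As a random block the day left -0.59 (adjusted p = 0.17). That difference also lost its call without roX63 replicate 2 (0.059) or 3 (0.085), Su(roDom)519 replicate 1 (0.055) or 3 (0.062), or roDom homozygote replicate 1 (0.058). The difference to posterior fragments lost it without posterior replicate 3 (0.061) or 4 (0.14) or roX63 replicate 3 (0.054).

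LanB1 encodes the laminin β chain, which sits in the same trimer as LanA, and it did not follow LanA. Its fitted levels ran from -0.21 to 0.25, and none of the 26 comparisons called it. Extra-R8 minus stop-furrow discs gave -0.19 with a 95% interval from -0.43 to 0.04. The third chain, LanB2, which was not among the 10 genes, was lower against the reference in 5 conditions, from -0.88 ± 0.24 in E(roDom)2033 homozygotes to -1.47 ± 0.29 in E(roDom)2033 heterozygotes. Those 5 included roX63 (-1.14 ± 0.24) and Su(roDom)519 (-1.23 ± 0.24). Its extra-R8 minus stop-furrow difference was not called (-0.60 ± 0.21, adjusted p = 0.084).

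**Figure D4:**
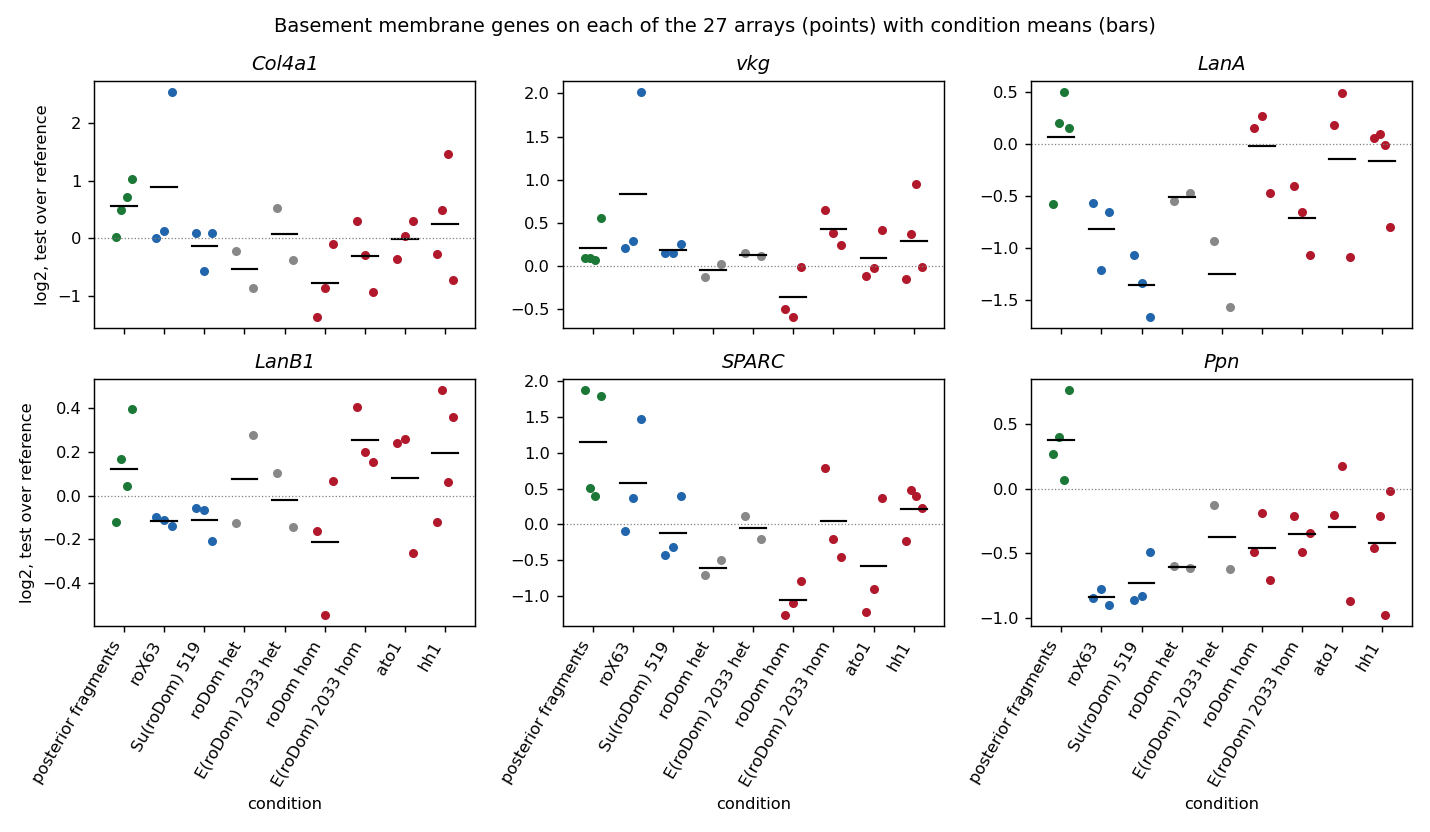
Log2 test over reference of 6 basement membrane genes (panels) by condition on the horizontal axis; points are the 27 arrays and bars are plain condition means without the dye term, coloured as posterior fragments (green), extra-R8 discs (blue), heterozygotes (grey) and stop-furrow discs (red). In the Ppn panel all blue points lie below all green points, and in the Col4a1 and vkg panels 1 roX63 point stands far above the others.

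Set side by side, the 3 group differences called different members. Posterior fragments minus stop-furrow discs called 4 of 10 genes higher (if, mys, SPARC and Ppn) and none lower, where 7.97% of all probes were called and 4.97% were higher. The median difference over the 10 genes was 0.42, against -0.01 over all probes. Extra-R8 minus stop-furrow discs called if higher and LanA lower, where 8.11% of probes were called (4.41% higher, 3.71% lower), with a median of 0.20. Posterior fragments minus extra-R8 discs called Ppn and LanA higher, where 7.88% of probes were called (4.49% higher), with a median of 0.34. These comparisons share arrays in pairs. Markers of other cells also differed between the fragments and stop-furrow discs, with 3 of 9 glial genes higher and 1 lower, 2 of 6 tracheal genes higher, and 1 of 8 antennal disc genes higher and 1 lower. Of 10 fat body and 10 muscle genes limma called 0, with 1 and 0 at an unadjusted p under 0.05. Their part in the members' differences was not tested. Between mutant conditions, 1 of 50 tests was called, if in roX63 minus roDom homozygotes (1.74 ± 0.41, adjusted p = 0.035), where 1.5% of probes were called. This call ended without any 1 of the 3 roX63 arrays or without roDom homozygote replicate 2 or 3 (adjusted p from 0.069 to 0.16). The comparison of roDom homozygotes with heterozygotes called 0 of 10 by limma (1 at an unadjusted p under 0.05) and 0.00606% of all probes. Those of ato1 with hh1 (3.14% of probes), roX63 with Su(roDom)519 (0.625%) and E(roDom)2033 homozygotes with heterozygotes (1.16%) also called 0 of 10 by limma, with 2, 0 and 1 at an unadjusted p under 0.05.

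**Figure D5:**
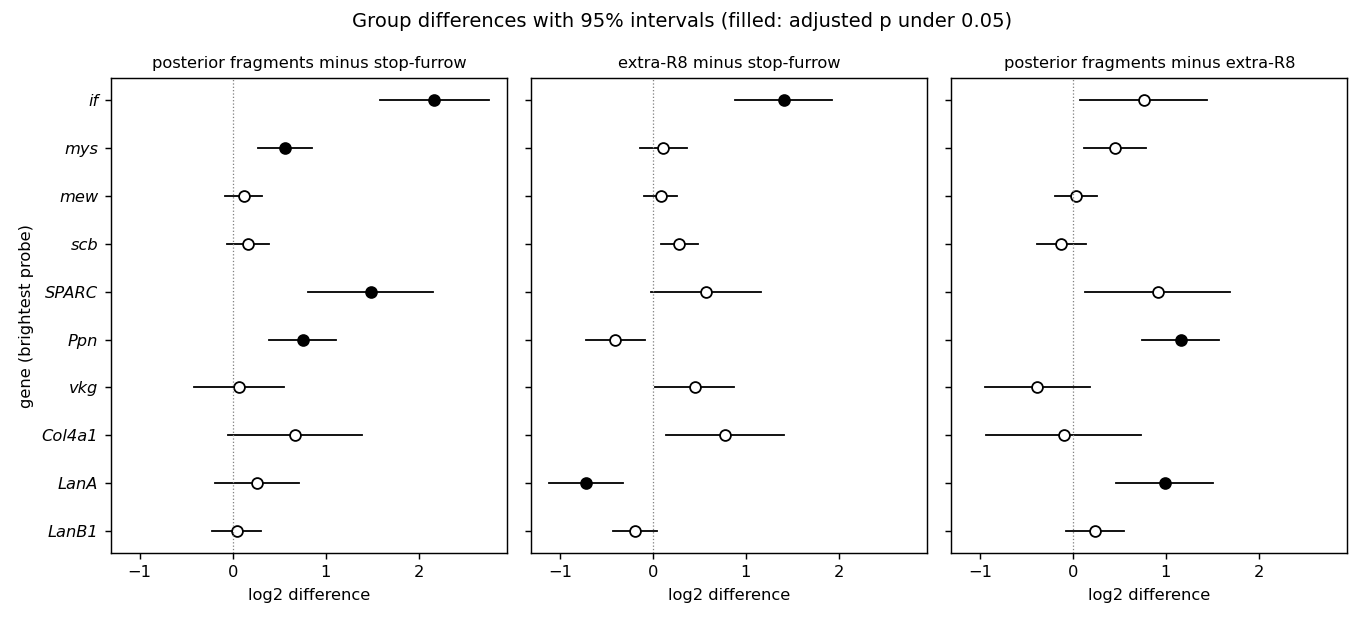
Log2 difference of the brightest probe of each of the 10 genes (rows) in 3 group differences (panels), each with its 95% interval; filled points have an adjusted p under 0.05. Filled points are if, mys, SPARC and Ppn on the left, if and LanA in the middle, and Ppn and LanA on the right.

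Other genes of integrin adhesion and of the matrix were taken from 4 lists. The remaining integrin genes, Itgbn, ItgaPS4 and ItgaPS5, had 0 of 3 calls by limma in all 3 group differences (2, 1 and 1 at an unadjusted p under 0.05). Of 16 listed genes of the adhesion complex 14 were measured. In posterior fragments minus stop-furrow discs, 2 rose, Tes (0.81 ± 0.18), a LIM protein, and Fak (0.65 ± 0.16), the focal adhesion kinase. Pax, which encodes paxillin, fell by 1.07 (± 0.22), with other probes of the gene at -0.46 and -0.21. Extra-R8 minus stop-furrow discs called 0 of 14 by limma (2 at an unadjusted p under 0.05). Posterior fragments minus extra-R8 discs called Tes (1.25 ± 0.21) and Fak (0.69 ± 0.18) higher. They called Pax lower (-0.94 ± 0.25), with other probes of the gene at -0.39 and 0.06.

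Of 13 other basement membrane and matrix genes, 4 were higher in posterior fragments than in stop-furrow discs and 1 was lower. They were mfas, a fasciclin-domain matrix protein (1.59 ± 0.27), Dg, which encodes the laminin receptor dystroglycan (1.12 ± 0.25), Sdc, the heparan sulfate proteoglycan syndecan (0.94 ± 0.21), and Mp, a collagen of the multiplexin type (0.59 ± 0.11). The glypican gene dlp fell by 0.64 (± 0.12). These are values of the brightest probe, and other probes gave less for Mp (-0.08 to 0.07) and dlp (-0.13) and from 0.12 to 1.62 for mfas. The median of the list was 0.05. In extra-R8 minus stop-furrow discs trol, which encodes perlecan, was higher (0.36 ± 0.09) and dlp was lower (-0.45 ± 0.11), each by its brightest probe. The other probe of each had the opposite sign (-0.08 for trol and 0.12 for dlp). Posterior fragments minus extra-R8 discs called mfas (1.98 ± 0.32), Sdc (0.86 ± 0.25) and Mp (0.54 ± 0.13) higher. There the other probes ran from 0.14 to 2.06 for mfas and from -0.08 to 0.15 for Mp. Dg (0.84 ± 0.29) and dlp (-0.19 ± 0.14) were not called in that comparison.

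Of 14 genes that process, crosslink or secrete matrix, 2 rose in posterior fragments minus stop-furrow discs. Mmp2, a matrix metalloproteinase, was 1.995 ± 0.38 higher (adjusted p = 0.0013), and Plod, a lysyl hydroxylase that modifies collagen, 0.55 ± 0.13 (adjusted p = 0.0079). The median of that list was 0.23. Timp, the inhibitor of matrix metalloproteinases, gave 0.46 ± 0.15 (adjusted p = 0.070). In extra-R8 minus stop-furrow discs Pdi, a protein disulfide isomerase, fell by 1.01 (± 0.18), and AdamTS-A was higher by its brightest probe (0.43 ± 0.09), with its other probe at -0.05. Posterior fragments minus extra-R8 discs called Mmp2 (1.46 ± 0.44), Pdi (1.14 ± 0.24) and Plod (0.64 ± 0.15) higher.

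The genes most like each member over the 9 condition means were found by Pearson r among 7090 named genes. For if they were mei-S332 (r = 0.97) and twit (0.96), and 27 genes passed r = 0.9. For SPARC they were Akap200 (0.98) and Timp (0.95), for Col4a1 l(1)G0196 (0.95) and regucalcin (0.94), and for vkg gammaTub37C (0.96) and schuy (0.96). For Ppn they were pain (0.94) and fw (0.94), for LanA Snx6 (0.94) and Vps15 (0.91), and for LanB1 Glos (0.96) and Pngl (0.95). For mys they were rudhira (0.96) and Atxn7 (0.92), for mew Or46a (0.97) and Nipped-A (0.96), and for scb Slob (0.93) and GXIVsPLA2 (0.92). With 9 points that share a reference, these values only describe likeness.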

How the data were processed

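Per the file headers, the deposited scanner files give pixel intensity and local background for each of 17664 spots in both channels, with a score and the percent of saturated pixels per spot. The deposited value table holds log2 ratios made by the authors. It runs as reference over test (r from -0.98 to -0.82 with the arrays), except the column of hh1 replicate 2, whose 10353 values all equal those of Su(roDom)519 replicate 3 with the sign turned, and which was left out. The genome build is not given in the sources used here. Per the labels, the printed spots are PCR products.

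Spots scored -75 or lower were dropped, background was corrected with normexp (offset 50), and ratios were loess-normalised within each array (span 0.3, R 4.3.3, limma 3.58.1). Ratios were turned to test over reference by the labels' dye, and spots of a probe were averaged. For replicate 2 of roDom homozygotes the file header has the opposite dye order. Turned by its label, this array correlated with replicate 1 at r = 0.51 and with replicate 3 at 0.29. A probe was detected where a channel exceeded its background by 2 SD. Gene names came from RefSeq (assembly release 6). Of the probes, 12714 matched a locus tag, 2751 a synonym and 34 a symbol, and 997 stayed unnamed. Ppn was read by a probe under an older CG number.

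Groups came from the array titles. Nothing says that replicates came from separate larvae, so p-values measure the spread between these arrays. All 27 arrays entered 1 limma fit of 9 group means and a dye term, with groups weighted equally in group differences and 26 comparisons in all. Each gene is given by its brightest probe, and the named genes are all members, the 2 genes most like each, and called genes of 4 pathway lists. Members and lists were chosen with earlier results of these data known. Alternatives covered the dye term, background, normalization, dim and low-score spots, array series, scanning day, the deposited table, the E(roDom)2033 labels, probe averaging, weighting, the groups compared alone, and each array left out. Leaving out the arrays with high Hml was chosen after seeing the data.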

Additional observations from a re-analysis of the deposited data

Results flagged for a closer look

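Among 26 groups of 4 arrays, in which chance flags about 1 in 20, 2 had an array far from the other 3 by Dixon's ratio. vkg read 0.56 on posterior replicate 4 (ratio 0.959), with the other 3 arrays at 0.08 to 0.10. LanA read -0.80 on hh1 replicate 4 (ratio 0.887), with the other 3 at -0.01 to 0.09. These values carry no dye term, and each of the 2 arrays was the only Cy5 array of its group. The dye effects, Cy5 minus Cy3, were -0.18 for vkg and -0.40 for LanA. The part of the dye in these flags was not tested. Some mutant conditions differed from each other in if by the limma test of the difference. roX63 discs were higher than roDom homozygotes by 1.74 (probe a), 1.72 (b) and 2.17 (c), and E(roDom)2033 homozygotes minus heterozygotes gave -1.72 (b) and -2.39 (c). For the collagen genes every roX63 array lay above 0 and every roDom homozygote array below 0. Those differences, 1.26 for vkg and 1.89 for Col4a1, did not pass the limma test (adjusted p = 0.062 and 0.060). Without roX63 replicate 3 they were 0.60 for vkg (adjusted p = 0.35) and 1.15 for Col4a1 (adjusted p = 0.33).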

How the results depend on the processing

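Counts of called members are given here in the order against the reference, against the other 8 conditions, posterior fragments minus stop-furrow discs, extra-R8 minus stop-furrow discs, posterior fragments minus extra-R8 discs, and between mutant pairs (16, 6, 4, 2, 2 and 1). Leaving out 1 array gave 13 to 18, 3 to 8, 1 to 4, 1 to 3, 1 to 3 and 0 to 4. Scanning day as a fixed block gave 1, 1, 1, 0 and 0 for the first 5, and turned the sign of LanA in extra-R8 minus stop-furrow discs (0.23). That fit reads levels against the reference at the first day, which held hh1 replicate 1 alone. Their signs and the first count therefore depend on this baseline, and do not show a dependence on the day. At that baseline Ppn was 0.18 in roX63 and 0.30 in Su(roDom)519, and vkg was -0.62 in roX63. LanA was 0.66 in roX63, 0.12 in Su(roDom)519 and 0.16 in E(roDom)2033 heterozygotes. Day as a random block gave 1 for extra-R8 minus stop-furrow and 1 for posterior minus extra-R8. Array series as a fixed block gave 2 against the reference, with levels read at the pooled 5th and 6th series. Scale normalization gave 4 for posterior minus extra-R8, and against the other 8 the deposited log2 ratios gave 2. With E(roDom)2033 grouped by the other label field, extra-R8 minus stop-furrow had 1. Without the arrays with Hml over 1, the first 5 counts were 11, 2, 2, 1 and 0, and 9 of the 16 calls against the reference remained. Between mutant pairs the count was 0 without the dye term, with scale normalization, with series as a block, in the 7th series alone, by the other label field and without the arrays with Hml over 1. It was 2 without negative scores or with all probes of a gene averaged, and 3 in the deposited table. Print-tip loess, no background subtraction and dropping dim probes lost none of the 31 calls. The cause of these shifts was not tested. No paired analysis was possible because replicate numbers follow accession order and pair nothing. Dim signal limits mew, scb probe g and vkg.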
